A study of Arabidopsis thaliana with 21 samples.

Results

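MYB23, CPC, TRY and EGL3 are regulators of trichome and root hair patterning, and MYB106 is a regulator of trichome branching. All 5 are described here by the peaks of a chromatin immunoprecipitation sequencing (ChIP-seq) study of GLABRA2 (GL2) in Arabidopsis thaliana. A peak was counted for a gene when its summit lay in the gene span or within 1 kb of it. By this rule 10 peaks were found at the 5 genes, out of 10293 peaks on the nuclear chromosomes in the 6 deposited lists. The genes were chosen because they held a peak, so which lists held one is a description and not a test.

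The data came from whole seedlings, 10 days old, of the Columbia ecotype, precipitated with an anti-GFP antibody, which recognises the yellow variant EYFP as well. The altered forms were EYFP:gl2_dSTART (2 ChIP libraries), EYFP:gl2_E375G R392M (3), EYFP:gl2_dZip (2) and EYFP:gl2_Amo (3), set beside EYFP:GL2 wild type (3) and the gl2-5 null mutant (2), and each of the 6 genotypes had 1 input library. All of them were homozygous for gl2-5. The fusions had been added to that mutant by floral dip, and of the 5 only EYFP:GL2 rescued its phenotype, per the labels. In the names, START is a lipid-binding domain and Zip the leucine zipper by which such factors pair, and E375G and R392M are written as amino acid changes. The gl2-5 list comes from plants with no EYFP fusion and shows what the antibody recovers without one. The promoter driving the fusions and the number of independent lines are not given in the sources used here, nor is the meaning of Amo. In whole seedlings, a fusion present in few cells and a fusion bound weakly in many cells cannot be told apart.

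GL2 is a homeodomain leucine zipper factor that acts late in the choice of epidermal cell fate. Upstream of it, a complex of a MYB factor, a basic helix-loop-helix (bHLH) factor and the WD40 protein TTG1 switches on GL2 in cells that become trichomes or hairless root cells. The same complex switches on small MYB proteins that move to neighbouring cells and block the complex there. MYB23 is a MYB activator related to GL1, EGL3 is a bHLH partner in the complex, CPC and TRY are single-repeat MYB inhibitors, and MYB106 is a MIXTA-like MYB factor that affects trichome branching and cuticle formation.

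The authors deposited 1 list per genotype, called by MACS on merged ChIP libraries against the input, so every value is a single measurement with no replicate error. The caller had kept 1 tag per position, which removed between 95.3% and 99.2% of the ChIP tags and left 297665 tags for gl2_dSTART, 372864 for gl2_E375G R392M, 1248287 for gl2_dZip, 538666 for gl2_Amo, 352707 for GL2 and 227071 for gl2-5. The lists differ in how the caller rated them. A false discovery rate (FDR) of 5% or less was given to all 2539 peaks of gl2_dSTART, 871 of 1280 for gl2_E375G R392M, 2 of 1259 for gl2_dZip, 3520 of 3533 for gl2_Amo, 428 of 1001 for GL2 and 19 of 681 for gl2-5.

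The 5 genes fell into 2 patterns. MYB23 held 1 peak in each of the 6 lists, the gl2-5 list included. CPC, TRY, EGL3 and MYB106 held 1 peak each, in 1 list of an altered form, and none in the GL2 or gl2-5 list. Of the 5 genes, 3 held a peak in the gl2_dSTART list (MYB23, CPC and TRY), 2 in gl2_E375G R392M (MYB23 and EGL3), 1 in gl2_dZip (MYB23), 2 in gl2_Amo (MYB23 and MYB106), 1 in GL2 (MYB23) and 1 in gl2-5 (MYB23). By the same rule, 4.7% of the 27444 protein-coding genes held a peak in the gl2_dSTART list, 3.06% in gl2_E375G R392M, 1.32% in gl2_dZip, 6.63% in gl2_Amo, 2.49% in GL2 and 2.14% in gl2-5. Because the 5 genes were picked for their peaks, nothing is read from these shares. A peak in 1 list was the usual case: of the 4063 protein-coding genes with a peak in any list, which are 14.8% of all, 3351 had it in 1 list and 58 had it in all 6. These 58 genes, among them MYB23, are 0.211% of all protein-coding genes.

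**Figure D1:**
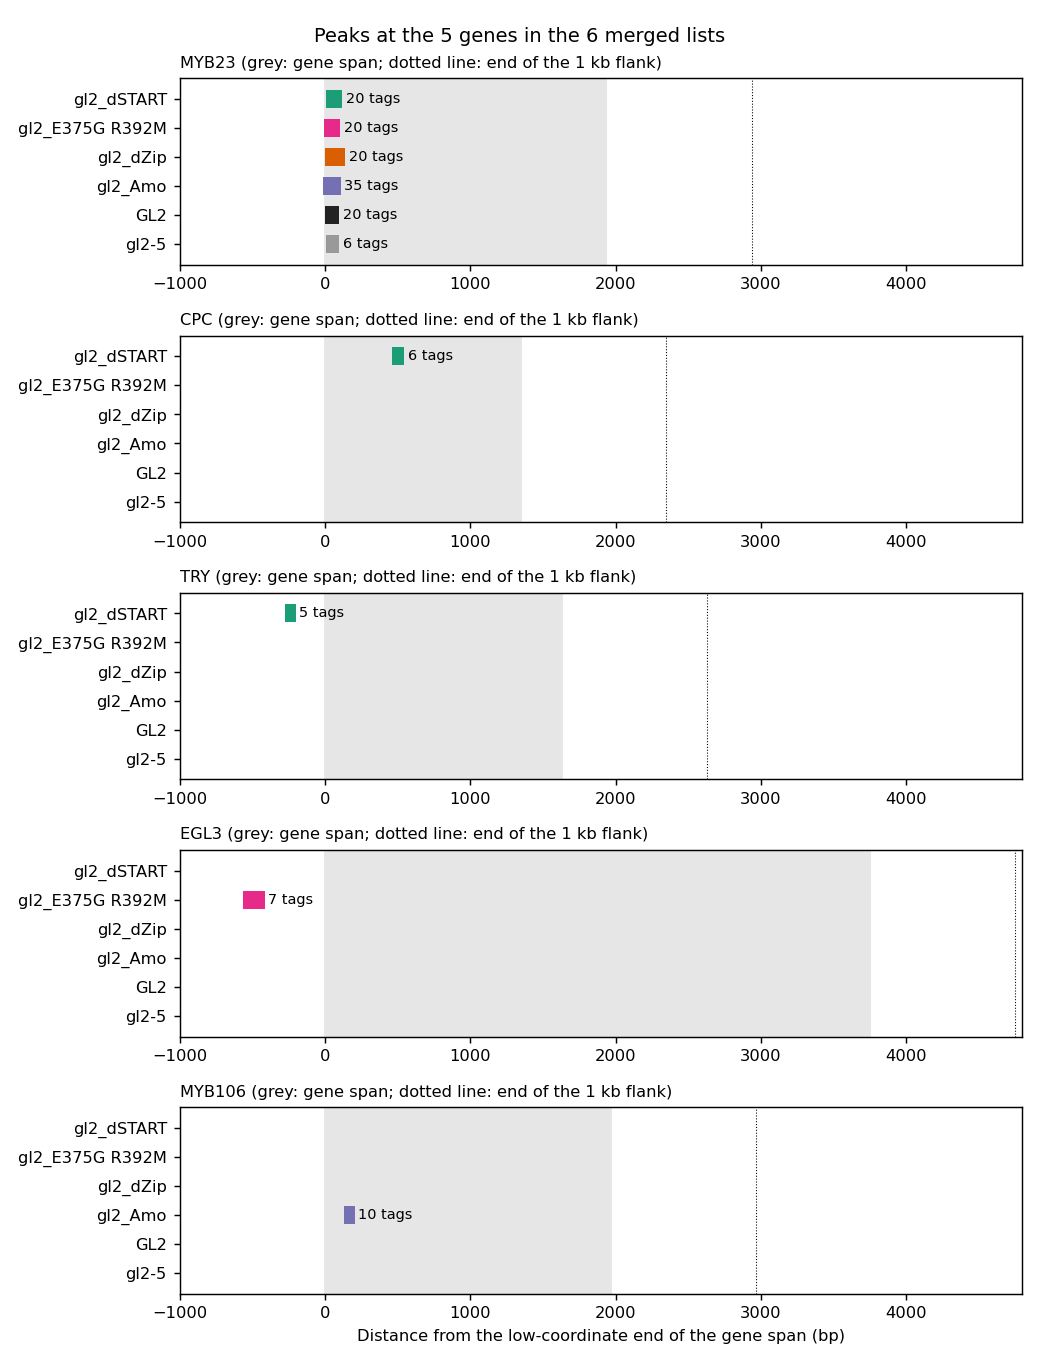
Peaks at MYB23, CPC, TRY, EGL3 and MYB106 in the 6 lists, plotted by distance in bp from the low-coordinate end of each gene span (grey), with the tags in each peak written beside it. MYB23 has a peak at the same place in all 6 lists, and the other 4 genes have 1 peak each, in the list of 1 altered form.

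At MYB23 (AT5G40330), the MYB activator, the peak lay at the low-coordinate end of the gene on chromosome 5. It reached from 16127735 to 16127845 in the gl2_dSTART list, from 16127719 to 16127828 in gl2_E375G R392M, from 16127725 to 16127863 in gl2_dZip, from 16127713 to 16127833 in gl2_Amo, from 16127724 to 16127823 in GL2 and from 16127733 to 16127822 in gl2-5 (TAIR10, the build named in the submitters' processing notes). The gene table used here has no strand, so this end cannot be called the start or the end of transcription.

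The summit lay inside the gene span in every list, 62 bp from the low-coordinate end for gl2_dSTART, 54 bp for gl2_E375G R392M, 49 bp for gl2_dZip, 44 bp for gl2_Amo, 48 bp for GL2 and 52 bp for gl2-5. The 6 summits thus stood within 18 bp of each other, less than the tag length of 51 bp. The 6 peaks had 88 bp in common and together covered 151 bp. The peaks of gl2_Amo, gl2_E375G R392M and GL2 began before the gene span, and those of gl2_dSTART, gl2_dZip and gl2-5 began within it. No other gene of the table had its span within 1 kb of any of these summits.

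**Figure D2:**
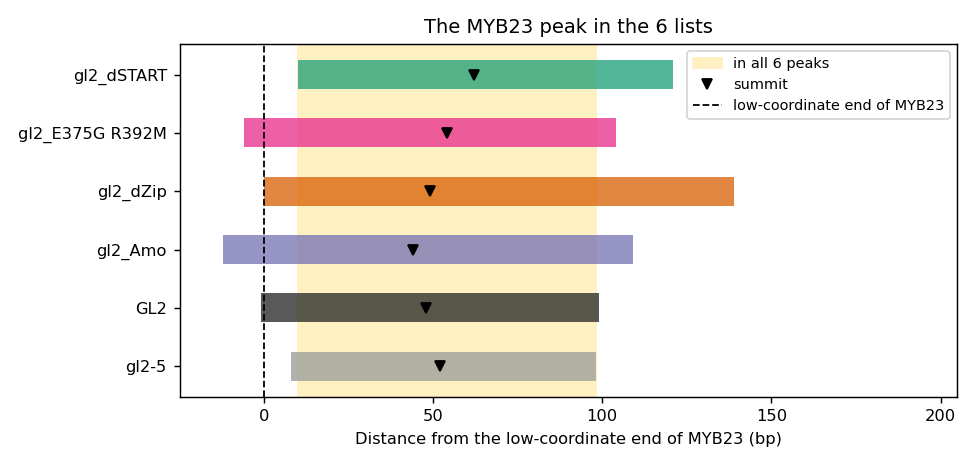
The MYB23 peak in the 6 lists, by distance in bp from the low-coordinate end of the gene (dashed line), with each summit as a triangle and the 88 bp common to all 6 peaks shaded. The summits lie between 44 and 62 bp inside the gene, and that of gl2-5, at 52 bp, lies among those of the fusions.

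The MYB23 peak held 20 tags in the gl2_dSTART list, 20 in gl2_E375G R392M, 20 in gl2_dZip, 35 in gl2_Amo and 20 in GL2, against 6 in gl2-5. The exact 95% Poisson interval was 24.4 to 48.7 tags for gl2_Amo, 12.2 to 30.9 for each of the other 4 fusions and 2.2 to 13.1 for gl2-5. These intervals, like all those given here, cover counting error only. The interval of gl2-5 overlapped those of gl2_dSTART, gl2_dZip, gl2_E375G R392M and GL2 at its upper edge, and lay below that of gl2_Amo.

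The lists had unequal depth, so the tags were also set against the retained tags of each list. Expressed as tags per 1000000 retained ChIP tags, the MYB23 peak stood at 67.2 for gl2_dSTART (interval 41.0 to 103.8), 53.6 for gl2_E375G R392M (32.8 to 82.8), 16.0 for gl2_dZip (9.79 to 24.7), 65.0 for gl2_Amo (45.3 to 90.4) and 56.7 for GL2 (34.6 to 87.6), against 26.4 for gl2-5 (9.70 to 57.5). On this scale gl2_dZip was the lowest of the 6 lists. In order from high to low the lists were gl2_dSTART, gl2_Amo, GL2, gl2_E375G R392M, gl2-5 and gl2_dZip, and the intervals of all neighbours in this order overlapped.

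As a ratio per retained tag, GL2 was at 2.15 times gl2-5, with an exact conditional interval of 0.831 to 6.53. The ratio to gl2-5 was 2.54 for gl2_dSTART (0.985 to 7.74), 2.03 for gl2_E375G R392M (0.786 to 6.18), 0.606 for gl2_dZip (0.235 to 1.85) and 2.46 for gl2_Amo (1.02 to 7.15). Apart from that of gl2_Amo, whose lower edge lay just above equality, each of these intervals included equal rates. At these tag counts an excess of the GL2 fusion over the null mutant at MYB23 was therefore not detectable beyond counting error, and the upper edge of 6.53 does not show that the rates were alike. Set against GL2, the ratio was 1.18 for gl2_dSTART (0.605 to 2.32), 0.946 for gl2_E375G R392M (0.483 to 1.85), 0.283 for gl2_dZip (0.144 to 0.553) and 1.15 for gl2_Amo (0.643 to 2.09). The gl2_dZip ratio was the only one of these 4 whose interval left out equality. Low gl2_dZip values were not particular to MYB23. On the retained-tag scale given above, a peak inside the gene PDF2 stood at 144 for gl2_dZip and 573 for GL2. Another PDF2 peak stood at 50.5 and 187. At the GL2 gene the gap was smaller. A peak there stood at 53.7 (41.6 to 68.2) for gl2_dZip and 73.7 (48.2 to 108) for GL2. Another stood at 14.4 (8.55 to 22.8) and 17.0 (6.24 to 37.0), and the intervals overlapped in both cases. Where peaks were divided differently between these lists, some gl2_dZip peaks stood higher than a single GL2 peak. Whether MYB23 differed from other sites in this was not tested. The gl2_dZip list also had the most retained tags and almost no peak at a low FDR, and the part of either in its low MYB23 ratio was not tested. When tags were divided by the total ChIP tags before duplicates were removed, every fusion stood below gl2-5, at 0.675 in gl2_dSTART, 0.553 in gl2_E375G R392M, 0.299 in gl2_dZip, 0.404 in gl2_Amo and 0.827 in GL2. The peak tags were counted after that removal, which took 95.3% of the tags for gl2-5, 98.2% for GL2 and 99.2% for gl2_Amo. This scale thus mixes counts before and after removal and moves with the share removed. No direction of a difference from the null mutant is read from it.

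**Figure D3:**
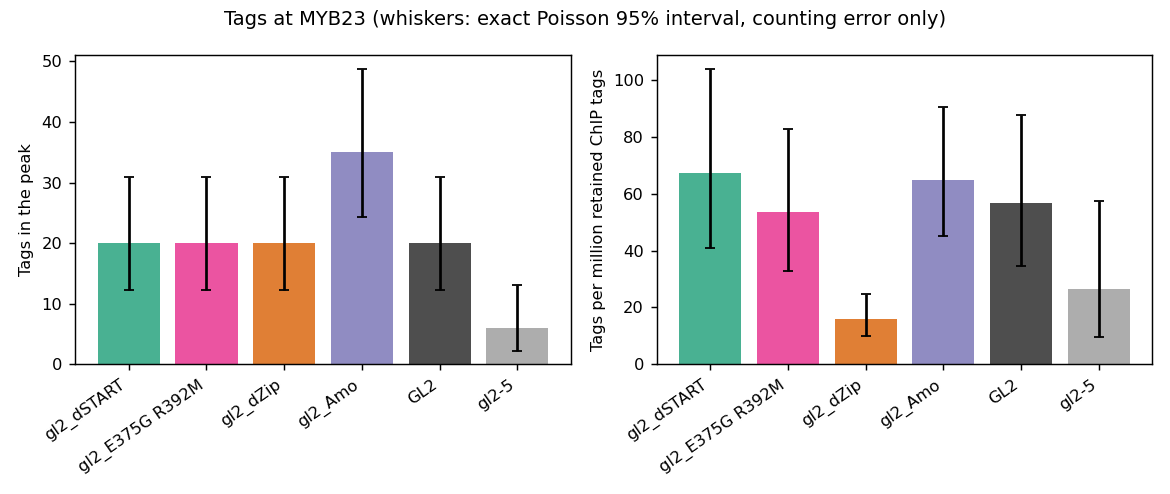
Tags in the MYB23 peak in the 6 lists, as deposited (left) and per 1000000 retained ChIP tags (right), with exact 95% Poisson intervals as whiskers. The gl2-5 bar is the lowest on the left, at 6 tags, and gl2_dZip is the lowest on the right, at 16.0.

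Within its own list the MYB23 peak stood high for 4 of the 5 fusions. The deposited score is the caller's p-value as a negative log10, multiplied by 10. It was 248 for gl2_dSTART, 229 for gl2_E375G R392M, 69.1 for gl2_dZip, 423 for gl2_Amo, 333 for GL2 and 99.1 for gl2-5. A higher score was held by 3.90% of the gl2_dSTART peaks, 7.97% of the gl2_E375G R392M peaks, 47.3% of the gl2_dZip peaks, 3.26% of the gl2_Amo peaks, 7.29% of the GL2 peaks and 46.7% of the gl2-5 peaks. By score, the peak was thus near the middle of its list in gl2_dZip and gl2-5. By fold enrichment it stood higher in gl2-5, where 15.9% of the peaks exceeded it, against 38.1% in gl2_dZip.

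The deposited fold enrichment over the local input background was 63.1 for gl2_dSTART (rank 74 of 2539 peaks), 54.0 for gl2_E375G R392M (110 of 1280), 16.0 for gl2_dZip (481 of 1259), 72.3 for gl2_Amo (50 of 3533), 142 for GL2 (17 of 1001) and 53.9 for gl2-5 (109 of 681). Each fold is set against its own input, so these values rank a peak within its list only. The deposited FDR was 0% for gl2_dSTART, 0.97% for gl2_E375G R392M, 100% for gl2_dZip, 0.86% for gl2_Amo, 0% for GL2 and 10.03% for gl2-5. At a limit of 5%, MYB23 therefore had a peak in 4 lists, and neither gl2_dZip nor gl2-5 was among them. That limit kept 0.159% of all gl2_dZip peaks and 2.79% of all gl2-5 peaks, so failing it in these lists is not particular to MYB23.

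**Figure D4:**
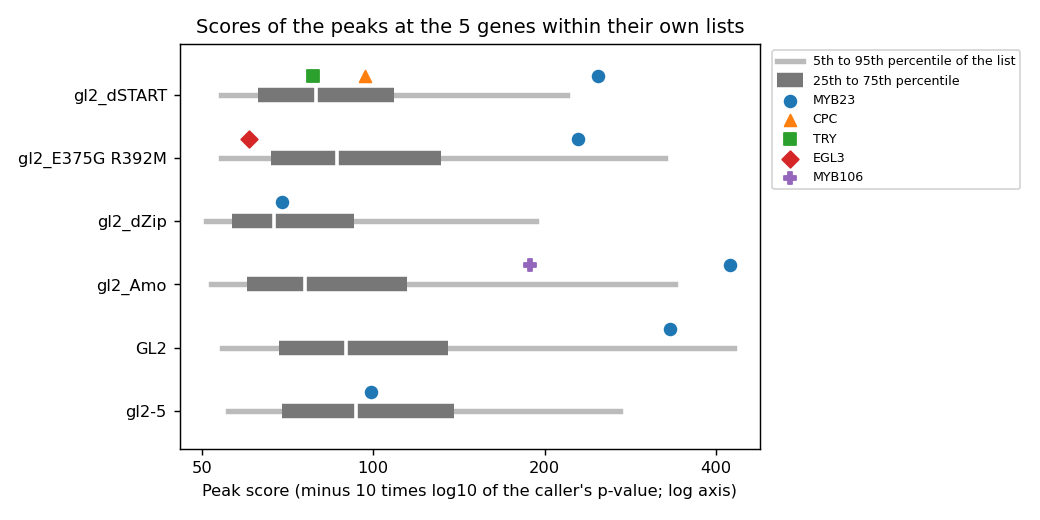
Score of each peak at the 5 genes (symbols) beside the spread of scores in its own list (grey bars, 25th to 75th and 5th to 95th percentile, with the median as a white mark) on a log axis. MYB23 is at a high score in gl2_dSTART, gl2_E375G R392M, gl2_Amo and GL2 and near the median in gl2_dZip and gl2-5. EGL3 is low in its list, and MYB106 is above the 75th percentile of its own.

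MYB23 was 1 of 82 GL2 peaks that overlapped a peak in all 5 other lists. Of the 82 peaks, 14 had a higher GL2 fold than MYB23 and 2 others had the same one, and the median fold of the 82 was 89.4. The spread of 18 bp between the 6 MYB23 summits was below the median of 25 bp in this set, which ranged from 3 to 364 bp, and 31 of the 82 peaks had a smaller spread and 5 others the same. The set includes the GL2 and PDF2 clusters, where the caller divided the peaks differently between lists, and the spread of 364 bp was at a PDF2 peak. None of the 31 peaks with a smaller spread lay in these clusters. The median of 25 bp therefore does not mark the MYB23 summits as closer together than those of other single sites. These counts are descriptions, since all 82 were selected by the same overlap.

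CPC (AT2G46410), a single-repeat MYB inhibitor needed for root hairs, had its peak in the gl2_dSTART list, on chromosome 2 from 19049483 to 19049567. The summit lay inside the gene, 503 bp from its low-coordinate end and 845 bp from the other. The peak held 6 tags (interval 2.2 to 13.1), 1 more than the lowest count of any gl2_dSTART peak, with a fold of 50.4 and an FDR of 0.93%. By fold it tied at rank 114 of 2539, whereas 29.7% of the list had a higher score.

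TRY (AT5G53200), the related inhibitor that keeps trichomes apart, also had its peak in the gl2_dSTART list, on chromosome 5 from 21582337 to 21582413. The summit lay outside the gene, 240 bp beyond its low-coordinate end. The peak held 5 tags (1.62 to 11.7), the lowest count in the list, which 873 of its peaks shared. Its fold of 24.3 and score of 78.5 were close to the medians of the list, 25.2 and 79.3, and its FDR was 1%.

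EGL3 (AT1G63650), the bHLH partner of the MYB activators, had its peak in the gl2_E375G R392M list, on chromosome 1 from 23598850 to 23598999. The summit lay 536 bp beyond the low-coordinate end of the gene, the farthest from its gene among the 10 peaks. The peak held 7 tags (2.81 to 14.4), with a fold of 15.9 and an FDR of 6.78%. A higher score was held by 84.9% of the list, and this peak does not pass an FDR of 5%.

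MYB106 (AT3G01140), the MIXTA-like factor, had its peak in the gl2_Amo list, on chromosome 3 from 46460 to 46535. The summit lay inside the gene, 167 bp from its low-coordinate end. The peak held 10 tags (4.80 to 18.4), with a fold of 43.2, at rank 105 of 3533, a score exceeded by 11.7% of the list and an FDR of 2.17%. A long non-coding RNA gene (AT3G01142) lay 221 bp from this summit and the protein-coding gene AT3G01130 lay 688 bp from it, so the peak has neighbours other than MYB106. The peaks at CPC, TRY and EGL3 had no other gene of the table within 1 kb of the summit.

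Expressed as tags per 1000000 retained tags of the list that held it, the peak at CPC stood at 20.2, that at TRY 16.8, that at EGL3 18.8 and that at MYB106 18.6. These are levels like the 16.0 of MYB23 in gl2_dZip and below the 26.4 of MYB23 in gl2-5, with counting intervals that overlap both. The lowest level of a called peak was 16.8 for gl2_dSTART, which is that of TRY, and 16.1 for gl2_E375G R392M. For gl2-5 it was 22.0, above the levels at CPC, TRY, EGL3 and MYB106, so the gl2-5 list held no peak at such levels. The absence of these genes from the gl2-5 list is thus not read as a lower level there. All 10 summits lay nearer to the low-coordinate end of the gene than to the high-coordinate end, which for CPC was by 503 against 845 bp. Since 6 of the 10 are the same MYB23 site and the strand of the genes was not used here, this has no reading as a promoter position.

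CPC, TRY, EGL3 and MYB106 were each without a peak in 5 lists. The files list called peaks only, so the tags at these genes in the other lists are not known. The lowest count of any called peak was 5 tags for gl2_dSTART, 6 for gl2_E375G R392M, 8 for gl2_dZip, 6 for gl2_Amo, 6 for GL2 and 5 for gl2-5, beside medians of 7, 9, 28, 9, 10 and 6 tags in the same order. A gene without a peak had no site past the caller's threshold, which does not show that it was unbound, and the part of unequal depth in the missing peaks was not tested.

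Just outside the 1 kb limit, MYB23 had other peaks within 5 kb and the other 4 genes had none. A gl2_dSTART peak with its summit 2178 bp from the gene (chromosome 5, 16125488 to 16125598) held 6 tags at a fold of 31.6 and lay in no gene. On the other side, a site in the neighbouring gene AT5G40340 was listed for 3 altered forms and for neither GL2 nor gl2-5. It held 11 tags for gl2_dZip (16134271 to 16134420, fold 18.7), 16 for gl2_Amo (16134314 to 16134457, fold 56.2) and 6 for gl2_E375G R392M (16134307 to 16134419, fold 23.5), with summits between 4706 and 4715 bp from MYB23. The FDR of these 3 peaks was 100%, 2.18% and 5.2% in that order. On the retained-tag scale the gl2_E375G R392M peak stood at 16.1, and the gl2_dZip peak below 11.2, the level of 14 tags there. The lowest called peak stood higher, at 17.0 for GL2 and 22.0 for gl2-5. The gl2_Amo peak, at 29.7 (17.0 to 48.2), stood above these lowest levels. The site is thus not read as specific to altered forms. How often other sites were listed for altered forms only was not tested.

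A list of 34 further genes of trichome, root hair and epidermal identity was searched by the same rule, and 5 of them (14.7%) had a peak in any list, beside 14.8% of all protein-coding genes. GL2 and PDF2, an epidermal homeodomain leucine zipper gene, carried clusters in all 6 lists, gl2-5 included, which made up 117 of the 120 peaks at the 34 genes. The fusion transgenes carry GL2 sequence and the gl2-5 plants have no fusion. The part of transgene copies in the GL2 cluster was not tested. The other 3 genes had 1 peak each, in 1 list each.

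ATML1, the paralog of PDF2, had a peak in the GL2 list inside the gene, 1728 bp from its high-coordinate end (chromosome 4, 11558947 to 11559095, 11 tags, fold 49.6, FDR 2.31%). SPL9, a factor of developmental phase that restrains trichome formation on stems, had a peak in the gl2_dSTART list inside the gene, 331 bp from its low-coordinate end (chromosome 2, 17587468 to 17587533, 6 tags, fold 50.4, FDR 0.93%). LRL2, a bHLH factor of root hair growth, had a peak in the gl2_E375G R392M list inside the gene, 607 bp from its high-coordinate end (chromosome 4, 15081135 to 15081202, 6 tags, fold 23.9, FDR 3.38%). None of these 3 peaks overlapped a gl2-5 peak, and a peak in 1 list only was also the case for 82.5% of all protein-coding genes with a peak.

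By role, peaks were found at 1 of 10 activators and their targets (GL2 itself), at none of 5 further single-repeat MYB inhibitors (ETC1, ETC2, CPL3, TCL1 and TCL2), at 1 of 9 upstream inputs and cell cycle genes (SPL9), at 1 of 5 hair genes (LRL2) and at 2 of 4 class IV homeodomain leucine zipper genes (PDF2 and ATML1). MYB16, the paralog of MYB106, had none. The core activators GL1, WER, GL3, TT8 and TTG1 had no peak in any list. Since 14.8% of all protein-coding genes had a peak in any list, nothing is read from role counts this small. Per list, 3 of the 34 genes (8.82%) had a peak for gl2_dSTART, 3 (8.82%) for gl2_E375G R392M, 2 (5.88%) for gl2_dZip, 2 (5.88%) for gl2_Amo, 3 (8.82%) for GL2 and 2 (5.88%) for gl2-5, beside the shares of all protein-coding genes of 4.7%, 3.06%, 1.32%, 6.63%, 2.49% and 2.14% in the same order. GL2 and PDF2 account for 2 genes in each of these counts. Without them, 1 gene was left for each of gl2_dSTART, gl2_E375G R392M and GL2 and 0 for gl2_dZip, gl2_Amo and gl2-5, and nothing is read from counts of this size.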

How the data were processed

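The 6 peak tables were used as deposited. Per the file headers, the authors called peaks with MACS 1.4.2 on 1 merged alignment per genotype against 1 input, at a p cutoff of 1e-05, a genome size of 1.35e+08 bp and at most 1 tag per position, and the fitted fragment size was 52 to 58 bp at a tag length of 51 bp. Bowtie2 2.2.3, bcl2fastq, MACS2 1.4.2 and the TAIR10 build are named in the submitters' processing notes. The deposited tags are whole counts per peak, not scaled to depth. The deposited score is the caller's p-value as a negative log10, multiplied by 10, the deposited fold enrichment is a ratio to the local background, and the deposited FDR is a percent from calls with ChIP and input exchanged.

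Peaks on the 5 nuclear chromosomes were kept. Gene spans came from a RefSeq table of the TAIR10.1 assembly, without strand or exons, in which all 39 gene identifiers were found; its coordinates were taken to match TAIR10 and served only for distances and names. Peaks were shared at 1 bp of overlap. Intervals are exact 95% Poisson and conditional binomial intervals (SciPy 1.17.1, Python 3.11.15). Their code was run on simulated counts. For the ratios this was at equal depth only and with 1 added to each count, and neither holds for these lists. That run thus does not check the ratio intervals at the depths and tag counts used here. Merged lists allow no test across libraries. Every peak at the 5 genes is named, as is every gene of the 34 with a peak. The 5 genes and the lists were chosen with earlier results of these data known. A motif search was planned but not made, because genome sequence was not used here.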

Additional observations from a re-analysis of the deposited data

How the results depend on the processing

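The count of lists with a peak stayed at 6 for MYB23 with flanks of 0 bp, 500 bp, 2 kb and 3 kb, with any 1 bp of overlap and at or above the median score of each list, and was 4 at an FDR of 5% or less. CPC and MYB106 stayed at 1 list under all 7 of these settings. TRY went to 0 lists without a flank and at or above the median score. EGL3 went to 0 lists with a flank of 0 or 500 bp, at an FDR of 5% or less and at or above the median score, and under each of these 4 settings the gl2_E375G R392M list was left with 1 gene. At an FDR of 5% or less gl2_dZip and gl2-5 were left with 0 genes. With gl2-5 peaks limited to an FDR of 5% or less, the MYB23 peak of each of the 5 fusions overlapped 0 gl2-5 peaks. The FDR of 10.03% of the gl2-5 peak at MYB23 fixed this outcome, and the limit kept only 2.79% of the gl2-5 list. It does not show that the site was absent from gl2-5. An overlap of 50% of the shorter peak or a distance of 500 bp left every count at 1. With the flank changed, the count of the 34 further genes with a peak moved only for gl2_Amo, from 2 to 3 at 2 kb and 3 kb. The share of all protein-coding genes with a peak rose with the flank in every list, for GL2 from 1.14% at 0 bp to 4.91% at 3 kb. The ratio of MYB23 tags between a fusion and gl2-5 was above 1 as deposited and turned to 0.606 for gl2_dZip per retained tag. Per total tag, a scale chosen after seeing the data, it turned to 0.675 in gl2_dSTART, 0.553 in gl2_E375G R392M, 0.299 in gl2_dZip, 0.404 in gl2_Amo and 0.827 in GL2. That scale sets tags kept after duplicate removal over tags before it, so no direction is read from it. No paired analysis was possible because replicates were merged before calling, and for the same reason no replicate could be left out. Peaks at CPC, TRY and EGL3 rest on 5 to 7 tags.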

Other observations

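Away from the 4 genes with a single peak, the nearest peak in a list without one lay between 17.2 and 738 kb from the gene, with a median of 50.1 kb over the 20 pairs of gene and list. Several of these nearest peaks were sites that recur across the lists. For CPC, the nearest peak of gl2_dZip, GL2 and gl2-5 was 1 site about 50.1 kb away that all 6 lists held (19100449 to 19100555 on chromosome 2 in the GL2 list), with 21 tags for gl2_dZip, 18 for GL2 and 9 for gl2-5. For EGL3, the nearest peak of gl2_dZip, gl2_Amo and GL2 was a site about 57.2 kb away that was also in all 6 lists (23542164 to 23542243 on chromosome 1 in the GL2 list), with 14 tags for gl2_dZip, 22 for gl2_Amo and 8 for GL2. For TRY, a site 19.4 kb away was in 4 lists, with 7 tags each for gl2_Amo, GL2 and gl2-5. For MYB106 the nearest peak of any other list, a GL2 peak with 6 tags, was 118 kb away.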
